A study of Mus musculus with 18 samples.

Results

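The 8 genes described here encode the core of the mouse inflammasome and pyroptosis machinery: the sensors Nlrp3, Nlrc4 and Aim2, the adaptor Pycard, the caspases Casp1 and Casp4, the pore-forming protein Gsdmd and the ATP-gated channel P2rx7. They were chosen by gene symbol alone, and all 8 were found among the 21441 genes of each of 2 FPKM tables, 1 of RAW264.7 cells and 1 of mouse liver. RAW264.7 is a single macrophage-like mouse cell line, and its cultures were control cultures, cultures with LPS, the outer membrane component of Gram-negative bacteria, or cultures with LPS plus 10 µM MIC-1, moringa isothiocyanate-1. Neither the LPS concentration nor the exposure time of the sequenced cultures is given in the sources used here. The labels of these cultures carry strain C57BL/6, wild type and the doses of the mouse experiment. The liver came from wild type male C57BL/6 mice killed 16 h after an intraperitoneal injection. Control mice were injected with saline, and LPS and LPS+MIC-1 mice with 10 mg/kg LPS. Before that the mice were gavaged for 3 days, LPS+MIC-1 mice with MIC-1 at 80 mg/kg in DMSO. The paper gives vehicle as the alternative to MIC-1 in this gavage and names the DMSO vehicle for its control group. Each table holds 3 libraries per treatment, 9 in all, and the column names give the treatment without a replicate number. Libraries are therefore numbered by their order within a treatment, and nothing in the table says which cultures were separate, so p-values measure the spread between these libraries.

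Inflammasomes are cytosolic complexes that form when a sensor meets its ligand. NLRP3 responds to disturbed ion balance, including the potassium loss that follows opening of P2RX7 by extracellular ATP, NLRC4 to bacterial flagellin and secretion systems through NAIP proteins, and AIM2 to cytosolic double-stranded DNA. The adaptor ASC, product of Pycard, links NLRP3 and AIM2 to caspase-1, which matures interleukin-1β and interleukin-18 and cleaves gasdermin D, whereas mouse caspase-11, product of Casp4, binds LPS in the cytosol and cleaves gasdermin D directly. RAW264.7 cells are known to lack ASC.

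Casp1 and Casp4 are neighbours on the same strand of chromosome 9 (mm9, chr9:5298517-5307265 and chr9:5308828-5336783). Their windows of 250 bases before the start are shown because this pair shares a locus while only Casp4 passed a test in liver. That call was lost in several alternatives given below, and the difference between the 2 genes was not tested. The window of Aim2 (gene at mm9 chr1:175281010-175396171) is shown because its fitted differences had opposite signs in the 2 tissues. The sequences are from RefSeq on GRCm38.p6, a later build than the mm9 of the tables, and capitals mark matches on either strand to the kappaB letters, GGG then any 5 bases then CC, where matches may overlap. The gene positions are GENCODE spans over all transcripts, so the RefSeq start after a window need not be the start of the span given.
Casp4 (chr9:5308599-5308848, plus strand): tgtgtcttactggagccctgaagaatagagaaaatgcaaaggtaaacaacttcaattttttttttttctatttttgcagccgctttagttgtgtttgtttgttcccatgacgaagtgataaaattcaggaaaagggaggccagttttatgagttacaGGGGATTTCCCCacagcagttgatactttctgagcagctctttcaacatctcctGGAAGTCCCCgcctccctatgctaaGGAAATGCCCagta
Casp1 (chr9:5298267-5298516, plus strand): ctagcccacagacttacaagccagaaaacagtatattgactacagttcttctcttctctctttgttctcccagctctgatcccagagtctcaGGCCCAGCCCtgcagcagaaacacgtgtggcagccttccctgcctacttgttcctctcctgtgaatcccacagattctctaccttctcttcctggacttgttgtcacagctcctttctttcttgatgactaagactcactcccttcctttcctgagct
Aim2 (chr1:173420354-173420603, plus strand): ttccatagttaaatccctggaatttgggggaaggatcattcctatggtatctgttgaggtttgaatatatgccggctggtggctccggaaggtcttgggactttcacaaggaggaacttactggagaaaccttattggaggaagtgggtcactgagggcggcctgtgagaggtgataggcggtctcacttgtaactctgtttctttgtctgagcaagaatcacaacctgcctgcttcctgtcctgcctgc
The Casp4 window held 3 separate stretches of kappaB letters, the most upstream being a run in which 4 matches overlap, the Casp1 window held 1 and the Aim2 window none. At least 1 match occurs in 45.8% of the 32851 mouse windows of this length, and at least 3 separate stretches occur in 5.88%. The second listed start of Casp4 gave the same 3 stretches. Of the other members with a window, Nlrp3 and P2rx7 had 1 match stretch at the first of their 2 starts, and Nlrc4 and Pycard had none. A further 3 motifs were searched on both strands: the interferon-stimulated response element (GAAA, any 2 bases, GAAA, in 2.98% of windows), the gamma-activated site (TTCNNNGAA, 7.02%) and the antioxidant response element (TGACNNNGC, 10.2%). Among the windows of the 7 members in the RefSeq table, these letters occurred once, as an antioxidant response element match at the first start of P2rx7. The table holds no window for Gsdmd.

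The tissue labels held against Lyz2, Csf1r and Alb among the defining markers. In RAW264.7 cells the macrophage lysozyme gene Lyz2 stood at 8730 to 10700 FPKM and the receptor gene Csf1r at 108 to 423 FPKM, the Kupffer cell gene Clec4f was listed at 0 in all libraries but LPS library 2, where it stood at 0.0203 FPKM, and the hepatocyte gene Alb stood at 1.09 to 5.46 FPKM. Not every listed marker went this way. The Kupffer cell gene Cd5l stood at 0.799 to 5.46 FPKM in these cells and the macrophage gene Mertk at only 0.0211 to 0.428 FPKM. In liver, Alb stood at 13700 to 36000 FPKM. In macrophages 1 library stood apart from its label. The paper describes its own macrophage analysis with 8 samples, 2 of them with LPS, and does not name a library left out. The macrophage library labelled LPS library 2 differed from the controls by a median SD of 0.407 in log2 FPKM and from the other LPS libraries by 1.21, and Il1b, induced by LPS in macrophages, stood at 4.87 FPKM there, against 214 and 227 FPKM in LPS libraries 1 and 3 and 1.84 to 5.83 FPKM in the controls. Counts for each macrophage comparison are therefore given with all 9 libraries as labelled and again with the 8 that remain without it. In liver, libraries 1 and 3 were close to each other within LPS (SD 0.451) and within LPS+MIC-1 (SD 0.467), while library 2 of both groups stood further off (SD 0.82 to 1.04). LPS library 2 was nearer to LPS+MIC-1 library 2 (SD 0.737) than to the other LPS libraries (1.03 and 1.04), and LPS libraries 1 and 3 were nearer to LPS+MIC-1 libraries 1 and 3 (0.671 to 0.745) than to LPS library 2, against the labels, so liver counts are also given without both libraries 2. In macrophages library 2 was likewise the one further off within control (SD 0.375 and 0.391, against 0.279 between libraries 1 and 3) and within LPS+MIC-1 (0.452 and 0.469, against 0.324). Macrophage LPS library 2 was nearest to control library 2 (SD 0.298). The fit over 8 libraries still holds library 2 of the control and LPS+MIC-1 groups. From the steps between low values, 1 FPKM stood for an estimated 13.7 to 24 reads per kilobase of transcript in macrophages and 5.7 to 16.7 in liver. This estimate differed between treatments. Liver controls stood at 10.1, 5.7 and 5.8 and treated liver libraries at 11.6 to 16.7, so low control values in liver rest on fewer reads. In macrophages LPS libraries 1 and 3 stood at 13.7 and 14.7, LPS library 2 at 21.7, LPS+MIC-1 at 16.8 to 19.9 and the controls at 22.2 to 24. Differences below are Log2FC values, fitted with limma on log2(FPKM + 0.5), a scale that understates changes of low genes. Genes whose mean over a table's 9 libraries exceeded 1 FPKM were tested, which left 7 members in macrophages, without Pycard, and 6 in liver, without Nlrp3 and P2rx7. Past the threshold means an absolute Log2FC above 1 with a Benjamini-Hochberg adjusted p-value below 0.01 in macrophages and below 0.05 in liver.

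In untreated RAW264.7 cells the effector genes were abundant and the sensors uneven. On the FPKM scale, which is per transcript length, Gsdmd was highest at 79.5 ± 13.5 (SD, n = 3), followed by Casp1 at 65.3 ± 3.76, Casp4 at 33.5 ± 3.69, Aim2 at 17.2 ± 1.58 and P2rx7 at 5.74 ± 2.27 (SD, n = 3 each). Nlrp3 ranged from 1.25 to 2.55 FPKM and Nlrc4 from 1.57 to 2.24 FPKM, and these 2 sensors could not be ordered because their ranges overlapped. No other pair of neighbours in this order overlapped. Pycard, the ASC gene (mm9 chr7:135135617-135137381), stood at 0.0843, 0.0457 and 0.0648 FPKM in the control libraries, at 0.073, 0 and 0.0343 in the LPS libraries and at 0.0505, 0 and 0 in the LPS+MIC-1 libraries. These values correspond to an estimated 0 to 2.54 reads per library, so no treatment difference in Pycard was detectable in this line.

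Aim2, the DNA sensor gene, had higher values with LPS than without in RAW264.7 cells and did not pass the threshold. It stood at 15.7, 18.9 and 17.2 FPKM in the controls, 36.1, 19.3 and 33.7 FPKM in the LPS libraries and 30.5, 29.9 and 30.8 FPKM in the LPS+MIC-1 libraries. LPS libraries 1 and 3 were above every other library, LPS library 2 was just above the highest control, and the 3 LPS+MIC-1 libraries lay close together between them. The fitted difference between LPS and control was 0.72 (SE 0.221, adjusted p = 0.0777, limma) over 9 libraries and 1.00 (SE 0.0855, adjusted p = 2.34e-05, limma) over 8, the latter at the fold limit and not above it. LPS+MIC-1 exceeded control by 0.80 both over 9 libraries (SE 0.221, adjusted p = 0.0331, limma) and over 8 (SE 0.0765, adjusted p = 8.34e-05, limma). From LPS to LPS+MIC-1 the difference was 0.08 (SE 0.221, adjusted p = 0.808, limma) over 9 libraries and -0.20 (SE 0.0855, adjusted p = 0.0747, limma) over 8, so its sign depended on LPS library 2.

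**Figure D1:**
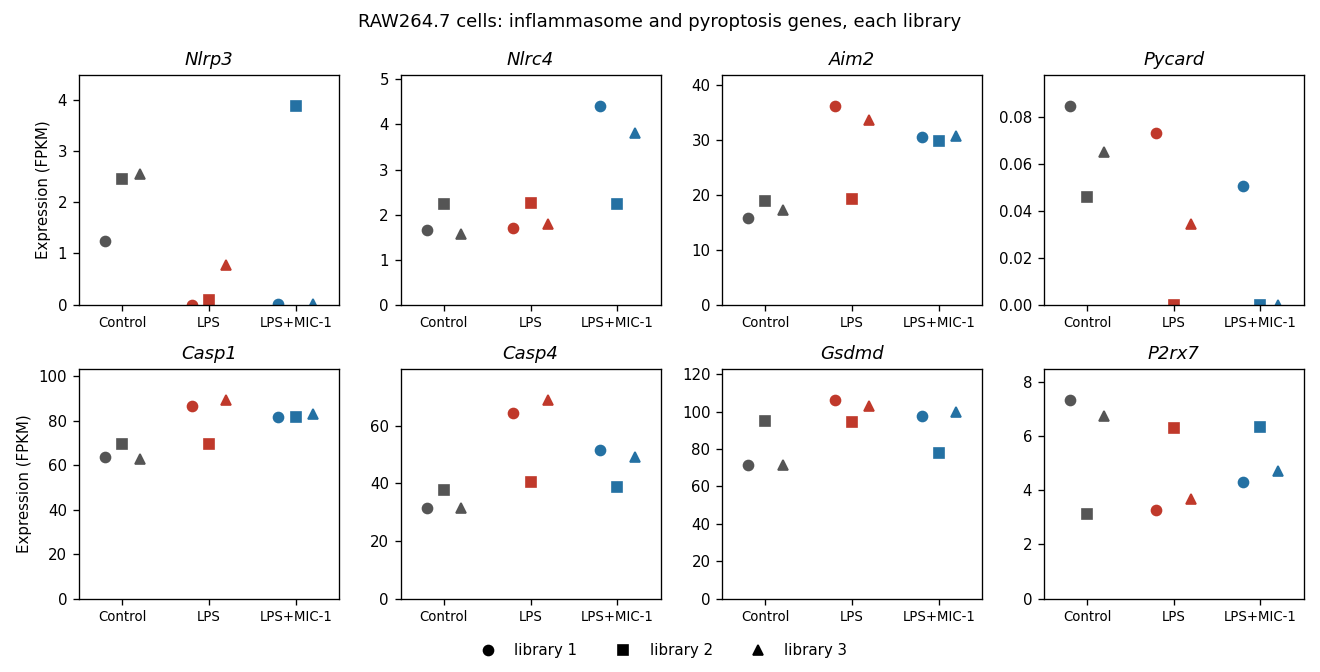
Expression in FPKM (linear axes from 0) of the 8 genes in the 9 libraries of RAW264.7 cells by treatment, 1 point per library and 1 marker shape per library number. LPS library 2 (square) lies at or near control level for Aim2, Casp1 and Casp4 and below the controls for Nlrp3. Nlrp3 reaches 3.88 FPKM in 1 LPS+MIC-1 library and 0.0153 or less in the other 2.

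Nlrp3 (mm9 chr11:59355070-59380458) was low and uneven in RAW264.7 cells. The control libraries held 1.25, 2.46 and 2.55 FPKM, the LPS libraries 0, 0.0938 and 0.768 FPKM and the LPS+MIC-1 libraries 0.0128, 3.88 and 0.0153 FPKM. Control and LPS did not overlap, whereas the LPS+MIC-1 libraries held both the highest and some of the lowest values. The separation over 9 libraries includes LPS library 2 (0.0938 FPKM), which stood near the controls over all genes and in Il1b. The LPS value lay below control by a Log2FC of -1.80 (SE 0.817, adjusted p = 0.111, limma, 9 libraries) or -1.66 (SE 0.932, adjusted p = 0.141, limma, 8 libraries), neither past the threshold. LPS+MIC-1 differed from LPS by 0.54 (SE 0.817, adjusted p = 0.654, limma, 9 libraries) or 0.40 (SE 0.932, adjusted p = 0.719, limma, 8 libraries). A spread from under 0.1 to over 1 FPKM within the LPS+MIC-1 group occurred in 0.929% of the 9905 tested genes, and 24 genes of the table were listed at 0 in 1 library of that group and above 5 FPKM in another, so a value at or near 0 is given here as listed and not as absence. Over the 9 libraries the genes most like Nlrp3 by Pearson's r on log2(FPKM + 0.5) were Spata5 (0.921), Ccdc25 (0.905) and Tgm4 (0.892), in libraries that share treatment and depth.

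Nlrc4 (mm9 chr17:74825635-74858448, minus strand) overlapped between control and LPS and was higher in part of the LPS+MIC-1 libraries. Its values were 1.66, 2.24 and 1.57 FPKM in the controls, 1.71, 2.26 and 1.78 FPKM with LPS and 4.40, 2.23 and 3.81 FPKM with LPS+MIC-1. LPS+MIC-1 libraries 1 and 3 were above all others, and library 2 lay within the range of the controls. The difference of LPS+MIC-1 from LPS was 0.68 (SE 0.248, adjusted p = 0.0833, limma) over 9 libraries and 0.78 (SE 0.253, adjusted p = 0.0255, limma) over 8, short of the threshold in both, and with FPKM rescaled to the same sum it passed over 8 libraries (1.39, adjusted p = 0.00119, limma). So rescaled, 3843 of the 9905 tested genes passed, 93% of them higher.

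The 2 caspase genes had larger fitted LPS differences over 8 libraries than over 9, and neither passed the threshold. Casp4, the caspase-11 gene, stood at 31.3, 37.8 and 31.5 FPKM in the controls, 64.4, 40.5 and 68.8 FPKM with LPS and 51.7, 38.6 and 49.0 FPKM with LPS+MIC-1. LPS libraries 1 and 3 were above every other library, and LPS+MIC-1 lay above the controls and below these 2 libraries. Over 8 libraries Casp4 differed between LPS and control by 0.98 (SE 0.138, adjusted p = 0.000337, limma) and between LPS+MIC-1 and LPS by -0.52 (SE 0.138, adjusted p = 0.0107, limma). Over 9 libraries these differences were 0.75 (SE 0.217, adjusted p = 0.0777, limma) and -0.29 (SE 0.217, adjusted p = 0.356, limma). The genes most like Casp4 over the 9 libraries were Sertad1 (Pearson's r 0.997), Acbd4 (0.995) and Ifi202b (0.992). Casp1 stood at 63.5, 69.6 and 62.8 FPKM in the controls, 86.5, 69.5 and 89.0 FPKM with LPS and 81.4, 81.5 and 82.8 FPKM with LPS+MIC-1. Its difference between LPS and control was 0.42 (SE 0.0644, adjusted p = 0.000514, limma) over 8 libraries, under the fold limit, and 0.31 (SE 0.12, adjusted p = 0.081, limma) over 9. LPS+MIC-1 and LPS differed in Casp1 by 0.01 (SE 0.12, adjusted p = 0.948, limma) over 9 libraries and by -0.10 (SE 0.0644, adjusted p = 0.207, limma) over 8.

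Gsdmd, whose product forms the pyroptotic pore, overlapped between all groups over the 9 libraries. It stood at 71.6, 95.1 and 71.7 FPKM in the controls, 106, 94.3 and 103 FPKM with LPS and 97.6, 78.1 and 99.6 FPKM with LPS+MIC-1. Library 2 was the odd one in every group, high among controls and low in the other 2 groups. The difference between LPS and control was 0.36 (SE 0.154, adjusted p = 0.0985, limma, 9 libraries) or 0.41 (SE 0.152, adjusted p = 0.0398, limma, 8 libraries). LPS+MIC-1 differed from LPS in Gsdmd by -0.15 (SE 0.154, adjusted p = 0.508, limma, 9 libraries) or -0.20 (SE 0.152, adjusted p = 0.281, limma, 8 libraries). P2rx7 (mm9 chr5:123093920-123141441), the ATP receptor gene, held 7.33, 3.14 and 6.74 FPKM in the controls, 3.28, 6.31 and 3.70 FPKM with LPS and 4.32, 6.35 and 4.71 FPKM with LPS+MIC-1. The control and LPS ranges overlapped almost entirely, and LPS differed from control by -0.31 (SE 0.343, adjusted p = 0.466, limma, 9 libraries) or -0.57 (SE 0.323, adjusted p = 0.144, limma, 8 libraries), and past the threshold by -1.43 (adjusted p = 0.00475, limma, 8 libraries) with FPKM rescaled to the same sum. On that rescaled basis 5052 of the 9905 tested genes passed, only 9.84% of them higher.

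Counted over the members, 0 of the 7 tested passed the threshold between LPS and control over 9 libraries, where 0% of all tested genes passed. LPS and control values were fully separate for 3 of 7 members, against 33.3% of all genes. These include Nlrp3, which entered the test only through its control and LPS+MIC-1 groups (means of 2.09 and 1.3 FPKM, against 0.287 with LPS). This count therefore carries no weight beyond the single genes. An unadjusted p-value below 0.05 was reached by Aim2, Casp1, Casp4 and Gsdmd, 4 of 7 members, against 49.8% of all tested genes. Over 8 libraries 0 of 7 members passed, while 34.2% of all genes did. With an adjusted p-value below 0.05 and no minimum fold these same 4 members passed, against 75.2% of all genes, so the share of members was no higher than that of all genes. For LPS+MIC-1 against LPS 0 of 7 members passed over 9 libraries (3.87% of all genes) and over 8 (23.3%). Unadjusted p-values below 0.05 were reached there by Nlrc4 over 9 libraries, 1 of 7 members against 37.8% of all genes, and by Nlrc4 and Casp4 over 8, against 71.1%. Without a minimum fold the adjusted p-value was below 0.05 for 2 of 7 over 8 libraries (68% of all genes) and for 0 over 9 (21.6%). Against control, LPS+MIC-1 gave 0 members over 9 libraries (5.59% of all genes) and over 8 (15.7%). Unadjusted p-values below 0.05 were reached by Aim2, Casp1 and Nlrc4 over 9 libraries, 3 of 7 against 38.6%, and by these and Casp4 over 8, 4 of 7 against 64.6%. Without a minimum fold the adjusted p-value was below 0.05 for Aim2 over 9 libraries, 1 of 7 against 24.8%, and for the same 4 over 8, against 60.3%. The directions given here are those under the authors' scaling of the libraries. The FPKM sums of LPS libraries 1 and 3 were 1137533 and 1132904, against 557136 to 592848 in the controls. With FPKM rescaled to the same sum, the median Log2FC of all genes between LPS and control moved from -0.02 to -0.93 over 8 libraries. On that scale Aim2 and Casp4 stood at 0.03 and 0.00, Casp1, Gsdmd and Nlrc4 at -0.56, -0.58 and -0.78, above that median, and P2rx7 (-1.43, adjusted p = 0.00475, limma) and Nlrp3 (-2.08) below it, P2rx7 being past the threshold there, as were 5052 of the 9905 tested genes (9.84% of these higher). For LPS+MIC-1 against LPS the median moved from 0.01 to 0.74, and Aim2, Casp1, Casp4, Gsdmd and Nlrp3 stood at 0.59, 0.70, 0.27, 0.60 and 0.62, below it, and Nlrc4 (1.39, adjusted p = 0.00119, limma) and P2rx7 (1.17, adjusted p = 0.0141, limma) above it, Nlrc4 being past the threshold there, as were 3843 of the 9905 tested genes (93% of these higher).

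**Figure D2:**
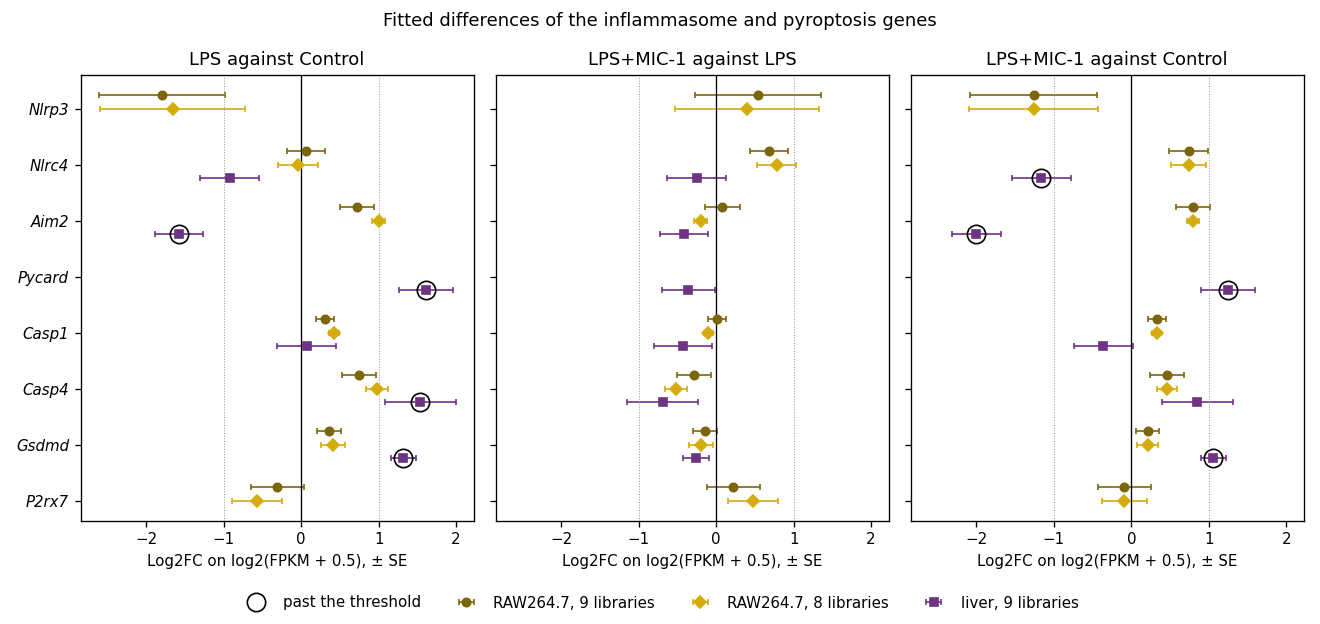
Fitted Log2FC on log2(FPKM + 0.5) with its standard error (bars) for each tested gene in the 3 comparisons, for RAW264.7 cells with 9 and with 8 libraries and for liver, dotted lines marking a Log2FC of -1 and 1. Circled points passed the threshold, which in liver were Aim2, Pycard, Casp4 and Gsdmd between LPS and control, and for Aim2 the RAW264.7 (0.72) and liver (-1.58) values lie on opposite sides of 0.

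In mouse liver LPS was accompanied by more Gsdmd, Pycard and Casp4 and less Aim2 RNA. Untreated liver held most members at a low level: Gsdmd 22.9 ± 3.06, Aim2 7.23 ± 2.09, Casp1 3.43 ± 1.57, Casp4 2.80 ± 1.58, Nlrc4 2.09 ± 0.0954, P2rx7 1.63 ± 0.35 and Pycard 0.773 ± 0.525 FPKM (SD, n = 3 each). Casp1, Casp4, Nlrc4 and P2rx7 overlapped with their neighbours in this order. Nlrp3 was listed at 0 in 8 of the 9 liver libraries and at 0.674 FPKM in LPS library 1, which allows no comparison, and the 2 genes with the highest r to it in liver, Snora15 and Mir215 (Pearson's r 1.0 each), share only that library, as Hist2h2aa2 (0.86) mostly does. In a whole organ, fewer cells of a type and less RNA per cell cannot be told apart.

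**Figure D3:**
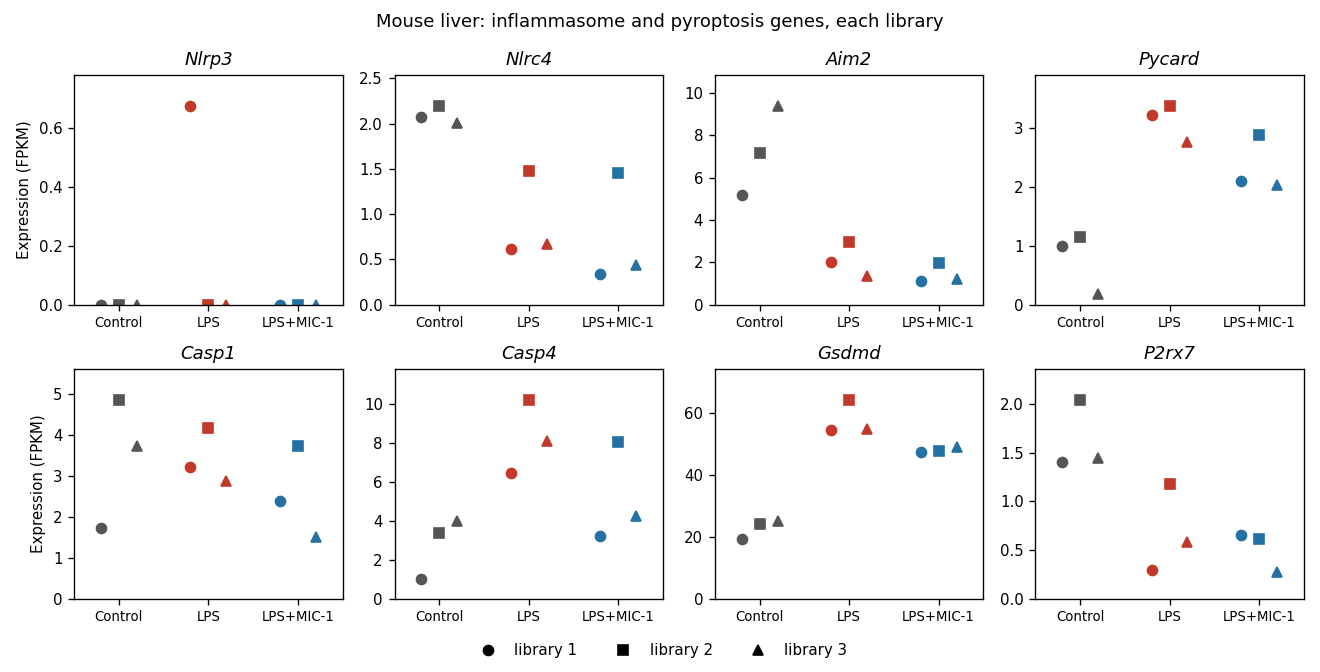
Expression in FPKM (linear axes from 0) of the 8 genes in the 9 liver libraries by treatment, 1 point per library. For Gsdmd and Pycard all LPS and LPS+MIC-1 libraries lie above all controls, for Aim2, Nlrc4 and P2rx7 all lie below, and for Nlrp3 a single library is above 0.

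Gsdmd (mm9 chr15:75692769-75697834) gave the most even difference. The liver controls held 19.4, 24.3 and 25 FPKM, the LPS libraries 54.5, 64.2 and 54.9 FPKM and the LPS+MIC-1 libraries 47.4, 47.9 and 49.1 FPKM. All 3 groups were separate, with LPS+MIC-1 below LPS and both above control. LPS exceeded control by 1.32 (SE 0.163, adjusted p = 0.00172, limma) and LPS+MIC-1 exceeded control by 1.06 (SE 0.163, adjusted p = 0.00321, limma), the latter under the fold limit without Control library 1 (0.95, adjusted p = 0.00368, limma), with median of ratios scaling (0.96, adjusted p = 0.00521, limma) and with the same FPKM sum in every library (0.42, adjusted p = 0.14, limma). LPS+MIC-1 lay below LPS by a Log2FC of -0.26 (SE 0.163, adjusted p = 0.997, limma), which did not pass, and ranges lower without overlap occurred in 4.64% of all tested genes in that comparison.

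Pycard, at the limit of detection in the cell line, was measurable in liver. It stood at 0.995, 1.15 and 0.173 FPKM in the controls, 3.23, 3.37 and 2.76 FPKM with LPS and 2.10, 2.88 and 2.03 FPKM with LPS+MIC-1, from an estimated 1.26 to 12.6 reads in the controls, 49.0 to 67.6 with LPS and 34.7 to 44.1 with LPS+MIC-1. Every treated library was above every control. The differences from control were 1.61 (SE 0.346, adjusted p = 0.0111, limma) with LPS and 1.25 (SE 0.346, adjusted p = 0.0239, limma) with LPS+MIC-1, and LPS+MIC-1 differed from LPS by -0.36 (SE 0.346, adjusted p = 0.997, limma). The LPS+MIC-1 call was lost without Control library 3 (Log2FC 0.84, adjusted p = 0.0393), LPS+MIC-1 library 1 (1.30, 0.0606), library 2 (1.12, 0.0672) or library 3 (1.32, 0.0585), and also with a pseudocount of 1 (0.95, 0.0196), with the same FPKM sum in every library (0.82, 0.11), with libraries 1 and 3 of the treated groups averaged (1.31, 0.0909) and without both libraries 2 (1.12, 0.0682). The LPS call held without any 1 library and was lost with libraries 1 and 3 averaged (1.63, adjusted p = 0.0717, limma throughout).

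Casp4 rose with LPS in liver, and Casp1 did not separate. Casp4 held 1.00, 3.40 and 3.99 FPKM in the controls, 6.48, 10.2 and 8.11 FPKM with LPS and 3.23, 8.08 and 4.27 FPKM with LPS+MIC-1. LPS was above control in every library, whereas LPS+MIC-1 spanned the gap, its library 2 at LPS level. The difference between LPS and control was 1.54 (SE 0.457, adjusted p = 0.0324, limma). This call was lost when any 1 of Control library 1 (Log2FC 1.05, adjusted p = 0.0531), Control library 2 (1.73, 0.0549), LPS library 1 (1.69, 0.0642), LPS library 2 (1.38, 0.0647) or LPS library 3 (1.54, 0.0936) was left out, and also with no filter on low values (1.54, 0.0503) or with the LPS and control libraries alone in the fit (1.54, 0.0518; limma throughout). LPS+MIC-1 differed from LPS by -0.69 (SE 0.457, adjusted p = 0.997, limma) and from control by 0.85 (SE 0.457, adjusted p = 0.173, limma). The genes most like Casp4 over the 9 liver libraries were Slc11a1 (Pearson's r 0.969), a metal transporter gene of phagocytes, 0610007P22Rik (0.964) and Gpx3 (0.961). Casp1 held 1.73, 4.83 and 3.73 FPKM in the controls, 3.22, 4.15 and 2.87 FPKM with LPS and 2.37, 3.72 and 1.49 FPKM with LPS+MIC-1. Its groups overlapped, with a difference between LPS and control of 0.07 (SE 0.38, adjusted p = 0.898, limma).

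The DNA sensor gene Aim2 fell. Liver values were 5.19, 7.14 and 9.36 FPKM in the controls, 2.00, 2.94 and 1.36 FPKM with LPS and 1.10, 1.98 and 1.2 FPKM with LPS+MIC-1, so that no treated library reached a control. The Log2FC was -1.58 (SE 0.311, adjusted p = 0.00821, limma) with LPS and -2 (SE 0.311, adjusted p = 0.00335, limma) with LPS+MIC-1, both against control, and LPS+MIC-1 differed from LPS by -0.42 (SE 0.311, adjusted p = 0.997, limma). With libraries 1 and 3 of the treated groups averaged the LPS difference was -1.47 (adjusted p = 0.0584, limma), short of the threshold. Nlrc4 held 2.07, 2.19 and 2.01 FPKM in the controls, 0.613, 1.48 and 0.672 FPKM with LPS and 0.338, 1.46 and 0.437 FPKM with LPS+MIC-1. Library 2 of both treated groups lay nearer to the controls than libraries 1 and 3. The difference was -0.92 (SE 0.381, adjusted p = 0.09, limma) between LPS and control and -1.16 (SE 0.381, adjusted p = 0.0427, limma) between LPS+MIC-1 and control. The latter call was lost without Control library 1 (adjusted p = 0.0699), 2 (0.105) or 3 (0.0898), LPS library 1 (0.0558) or 3 (0.059) or LPS+MIC-1 library 1 (0.14) or 3 (0.133), with Log2FC values of -1.19 to -0.93, and without LPS library 2 the former passed (-1.18, adjusted p = 0.0356, limma throughout). P2rx7, under the filter, held 1.41, 2.04 and 1.45 FPKM in the controls, 0.296, 1.18 and 0.579 FPKM with LPS and 0.653, 0.617 and 0.273 FPKM with LPS+MIC-1, all treated libraries below all controls. In the fit with no filter P2rx7 differed from control by -0.90 (SE 0.313, adjusted p = 0.0739, limma) with LPS and by -1.08 (SE 0.313, adjusted p = 0.0403, limma) with LPS+MIC-1. Aim2 overlaps Cadm3 on the opposite strand in the GENCODE annotation of mm9, which is not the RefSeq index that the authors matched reads to. An overlap of their RefSeq transcripts was not examined. Whether strand was used in counting is not given in the sources used here.

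In liver 4 of the 6 tested members passed between LPS and control, where 24.6% of the 10147 tested genes passed, 3 higher (13.4% of all genes) and 1 lower (11.2%). Ranges did not overlap for 5 of the 6 tested members, against 45% of all genes. Between LPS+MIC-1 and control 4 passed (25.2% of all genes), Pycard and Gsdmd higher (13.8%) and Nlrc4 and Aim2 lower (11.5%). Both comparisons use the same 3 control libraries. Pycard entered the test only through its treated groups and Nlrc4 only through its controls, as the other groups' means were under 1 FPKM, so these counts carry no weight beyond the single genes. From LPS to LPS+MIC-1, 0 of the 6 tested members passed, as did 0% of all genes (3.59% at an unadjusted p-value below 0.05, 0 of them members, limma). The 6 Log2FC values lay between -0.69 and -0.25, against a median of -0.01 over all tested genes, and their standard errors of 0.163 to 0.457 do not separate them from 0. With FPKM rescaled to the same sum, the median of all genes between LPS and control moved from 0.15 to -0.18, and Aim2 (-1.92), Pycard (1.41), Casp4 (1.22, adjusted p = 0.0929, limma) and Gsdmd (0.96) kept their directions. The last 2 were then short of the threshold, and Nlrc4 (-1.21, adjusted p = 0.0366, limma) passed, as did 2645 of the 10147 tested genes (30.1% of these higher). When the close libraries 1 and 3 of each treated group were averaged, Gsdmd alone passed between LPS and control, while Aim2 (-1.47, adjusted p = 0.0584), Pycard (1.63, 0.0717) and Casp4 (1.62, 0.106) kept folds of a like size (limma throughout). Without both libraries 2 of the treated groups, Gsdmd, Pycard, Aim2 and Nlrc4 (-1.18, adjusted p = 0.00364, limma) passed and Casp4 (1.38, adjusted p = 0.055, limma) did not, and LPS+MIC-1 then gave 3 members against control and 0 against LPS. The share of all genes that passed with these libraries averaged or left out was not counted. These member counts therefore describe single genes only.

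Markers of several cell types moved with these genes in liver. The summed FPKM of the neutrophil markers in the table was 37.7 to 53.5 in the controls, 356 to 454 with LPS and 194 to 468 with LPS+MIC-1, and 8 of the 9 tested were past the threshold higher with LPS and 1 lower. Macrophage markers summed to 43.2 to 70.2 FPKM in the controls, 154 to 636 in LPS liver and 150 to 453 in LPS+MIC-1 liver, with 2 of 7 tested higher with LPS and 1 lower, and most of the sum with LPS was Cd14, the LPS co-receptor gene (3.49 to 10.8 FPKM in the controls, 569, 84.2 and 552 after LPS, then 56.7, 407 and 61.4 after LPS+MIC-1). Endothelial markers summed to 19.1 to 21.3, 32.4 to 43.9 and 27.8 to 41.9 FPKM, with 2 of 5 higher with LPS and 1 lower, and of the 8 hepatocyte markers 3 were lower with LPS and 0 higher. Of the defining neutrophil genes, S100a9 was listed at 0 in 2 control libraries and at 0.448 FPKM in the third, and stood at 37.6 to 60.1 FPKM with LPS. Monocyte markers summed to 2.03 to 3.42 FPKM in the controls, 4.81 to 22.6 with LPS and 8.65 to 16.9 with LPS+MIC-1. Lymphocyte markers summed to 14.1 to 17.7 FPKM in the controls, 2.5 to 6.32 with LPS and 2.89 to 4.73 with LPS+MIC-1, and the Kupffer cell gene Clec4f stood at 13 to 30.1, 2.85 to 6.32 and 4.33 to 4.83 FPKM in the same order, although all Kupffer cell markers together summed to 31.0 to 51.0, 42.0 to 53.9 and 53.0 to 99.3 FPKM. The part of these cells in the rise of Gsdmd, Pycard and Casp4 or in the fall of Aim2 was not tested.

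**Figure D4:**
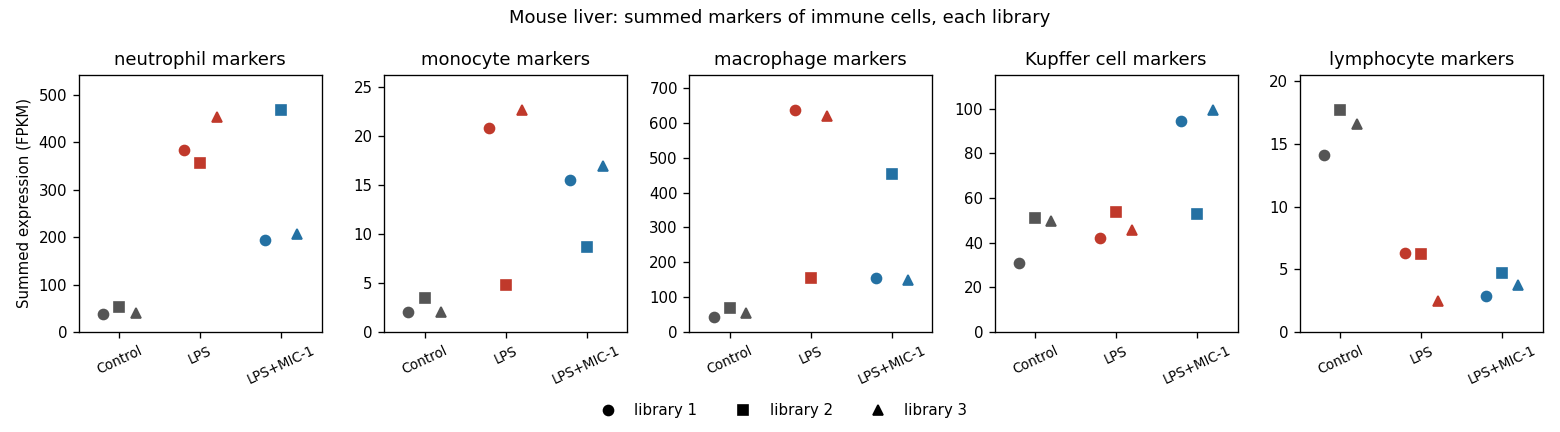
Summed FPKM (linear axes from 0) of 5 lists of immune cell markers in the 9 liver libraries by treatment, 1 point per library. Neutrophil markers are higher in all treated libraries than in all controls and lymphocyte markers lower, while library 2 stands apart from libraries 1 and 3 in LPS and LPS+MIC-1 for monocyte and macrophage markers.

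The surrounding pathway was followed in 6 lists of further genes, of which 49 were found in the tables, 32 tested in macrophages and 27 in liver. In liver 8 of 27 were past the threshold higher with LPS and 0 lower (13.4% and 11.2% of all tested genes), with a median Log2FC of 0.63 against 0.15 over all tested genes. The 4 with the largest difference were Zbp1, a nucleic acid sensor of cell death signalling (3.98, SE 0.307), Tnfaip3, encoding the inhibitory enzyme A20 (2.83, SE 0.627), Il1b, the main substrate of caspase-1 (2.52, SE 0.324), and Nlrp12 (2.13, SE 0.199). Il1b stood at 0.587 to 1.72 FPKM in control liver, 7.21 to 9.88 FPKM with LPS and 4.25 to 8.10 FPKM with LPS+MIC-1, above control by 1.89 (SE 0.324, adjusted p = 0.00462, limma) in the last. The other interleukin-1 substrates, Il18 (0 to 3.84 FPKM in control liver and 1.05 to 2.96 FPKM with LPS) and Il1a (2.06 to 2.99 and 2.43 to 7.38 FPKM), did not pass. With LPS+MIC-1, 5 of 27 were past the threshold higher than control and 0 lower (13.8% and 11.5% of all genes), among them Zbp1 (3.30), Nlrp12 (2.14), Il1b (1.89) and Ninj1 (1.19), whose product ruptures the plasma membrane after gasdermin pores form. From LPS to LPS+MIC-1, 0 of 27 passed, with a median of -0.20 against -0.01 over all genes.

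In RAW264.7 cells 0 of 32 passed between LPS and control over 9 libraries, and 8 were higher and 7 lower over 8, where 16.3% and 17.9% of all genes were. The largest 4 over 8 libraries were Il1a (6.81, SE 0.871), Il1b (6.05, SE 0.894), Nlrp1b, a sensor gene (-2.63, SE 0.0925), and Ninj1 (2.49, SE 0.124). Il1b stood at 635, 81.7 and 664 FPKM with LPS+MIC-1 and Il1a at 236, 25.5 and 234 FPKM, against 214, 4.87 and 227 FPKM and 84.0, 0.401 and 79.8 FPKM with LPS, and neither passed between LPS+MIC-1 and LPS. Il18 stood at 0.617 to 3.88 FPKM over all 9 libraries and did not pass. With MIC-1, 7 genes were higher and 3 lower than with LPS over 8 libraries (11.3% and 12% of all genes), the largest being Nlrp1b (2.42), Ripk3, a necroptosis kinase gene (2.11), Dfna5, encoding gasdermin E (2.03), and the ATP release channel gene Panx1 (2.03). Over 9 libraries only Txnip, an NLRP3-binding redox protein gene, passed, at 156, 136 and 155 FPKM with LPS+MIC-1 and 346 to 443 FPKM with LPS (Log2FC -1.44, SE 0.165, adjusted p = 0.00162, limma), where 2.06% of all genes were higher and 1.81% lower. Against control, the necroptosis effector gene Mlkl (1.02) and the ATP-degrading ectoenzyme gene Entpd1 (2.88) passed higher over 9 libraries (3.27% of all genes higher and 2.32% lower), and 9 were higher and 2 lower over 8 (7.55% and 8.2%), led by Il1a (7.27), Il1b (6.61), Entpd1 (2.88) and Tnfaip3 (1.43).

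**Figure D5:**
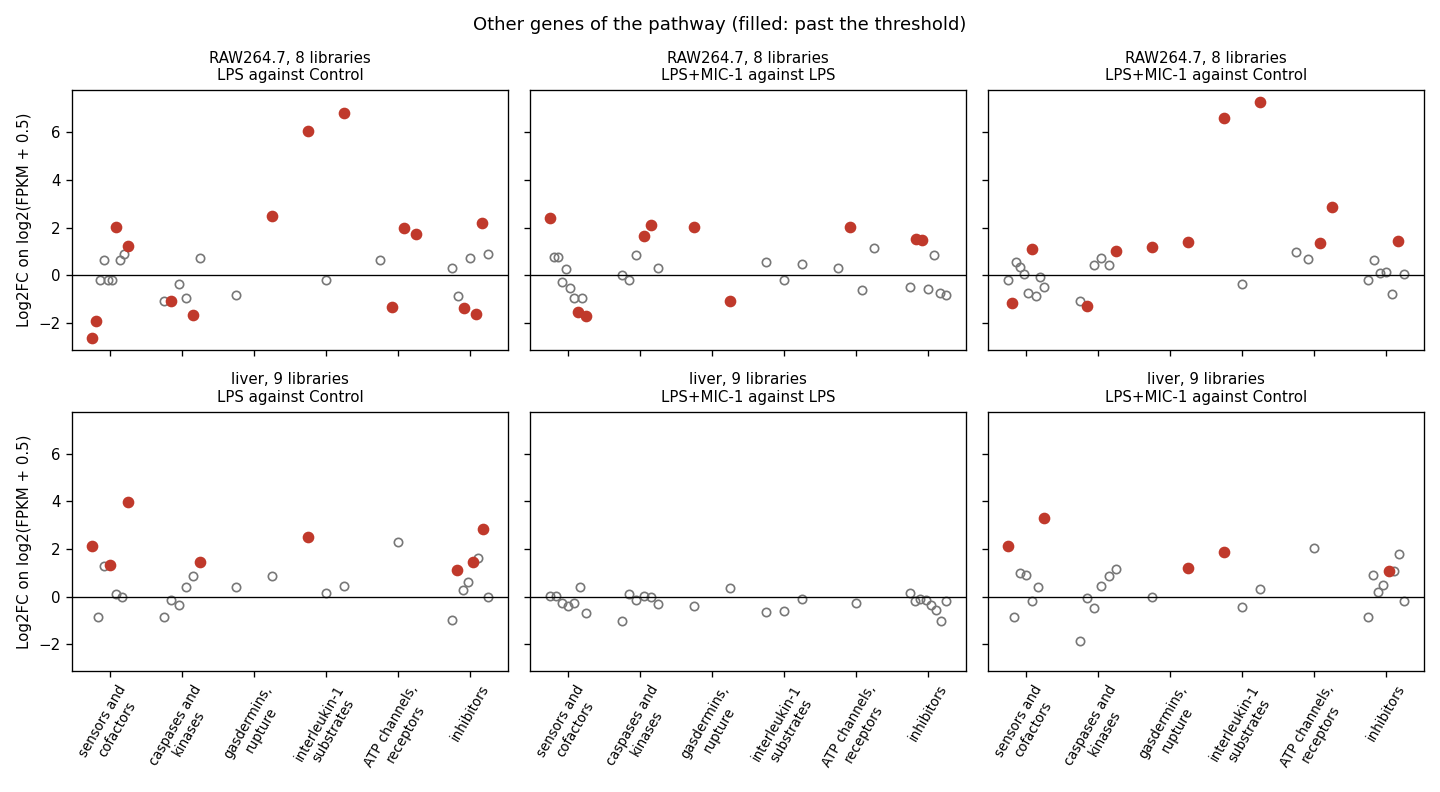
Log2FC on log2(FPKM + 0.5) of the tested genes of 6 pathway lists in the 3 comparisons, for RAW264.7 cells over 8 libraries (top) and liver (bottom), 1 point per gene, filled where past the threshold. In liver 8 genes are filled between LPS and control, all above 0, and 0 between LPS+MIC-1 and LPS, whereas in RAW264.7 cells filled points lie on both sides.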

How the data were processed

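RNA from RAW264.7 cells and mouse liver was sequenced at BGI. The authors pseudoaligned the reads with Kallisto 0.45.0 to a RefSeq index of mm9, took gene-level sums with tximport, and the FPKM values they deposited came from DESeq2 1.20.0, which scales between libraries. The authors' own comparison tables (mean normalized counts, log2 fold changes, standard errors, Wald statistics and p-values) were not used. Columns were matched to a treatment by name, and 0 were left unmatched.

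Each table was analysed alone, with Python 3.11.15 and R 4.3.3. Genes with a mean FPKM above 1 were tested on log2(FPKM + 0.5) with limma 3.58.1 (eBayes with trend, all 3 groups in 1 fit) and Benjamini-Hochberg adjustment over all tested genes. Read depth was estimated from the steps between low FPKM values, of which 77.6 to 83.6% per library were whole multiples within 0.1. The fit was tested on simulated data with known changes. The simulated libraries were independent, with capped spreads and large changes in well-expressed genes only. This check therefore does not cover libraries that stand apart or lie close together, or genes at a low level. The text names all 8 members, the interleukin-1 substrates, at most 4 called genes of the pathway lists per comparison, and the 3 genes most like Nlrp3 and Casp4. The members, lists and alternatives were chosen with earlier results of these data known, and the fit over 8 macrophage libraries together with a second choice, like averaging the close liver libraries or leaving out both treated libraries 2, was added after seeing the data. Of the list genes, Nlrp1c-ps, Nlrp6, Ifi203, Cd68 and Ly6g did not match a symbol of the tables. Gene positions are from GENCODE vM1 on mm9. No protein sequences are reported here.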

Additional observations from a re-analysis of the deposited data

Results flagged for a closer look

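Aim2 differed with opposite signs in the cell line, where it did not pass the threshold, and in liver, where it did. Between LPS and control its Log2FC was 0.72 in RAW264.7 cells (adjusted p = 0.0777, limma, all 3 LPS libraries above all controls, LPS library 2 by 19.3 against 18.9 FPKM) and -1.58 in liver (all 3 below). Between LPS+MIC-1 and control it was 0.80 in RAW264.7 cells and -2 in liver, again with every library on its side. The difference between the tissues was not tested, because the tables were normalized separately, and with FPKM rescaled to the same sum the RAW264.7 difference with LPS was 0.05. The liver difference moved together with the lymphocyte marker sums (14.1 to 17.7 FPKM in the controls and 2.5 to 6.32 with LPS), but not with these alone. Past the threshold lower with LPS were 2 of 3 tested lymphocyte, 2 of 6 Kupffer cell and 3 of 8 hepatocyte markers, and higher 0, 1 and 0. The part of any of these cells was not tested.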

How the results depend on the processing

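No paired analysis was possible because the columns carry no replicate number. The number of members past the threshold between LPS and control in liver, 4, ranged from 3 to 4 when 1 library was left out, fell to 2 with a mean FPKM above 5 (which leaves fewer members tested) and to 1 with libraries 1 and 3 averaged. For LPS+MIC-1 against control in liver, also 4, it ranged from 2 to 4 when 1 library was left out (2 without Control library 1 or 3 or LPS+MIC-1 library 1 or 3), and was 2 with a pseudocount of 1, with FPKM brought to 1 common sum per library (the same sum, below) or with libraries 1 and 3 averaged, and 1 with a mean FPKM above 5. For LPS+MIC-1 against LPS in liver it stayed at 0 in every alternative run. With the same sum 3111 of the 10147 tested liver genes passed between LPS+MIC-1 and control. The share of all liver genes was not counted for left-out or averaged libraries or for another pseudocount or filter, so a member change cannot be set against it. In macrophages over 9 libraries the count of 0 changed in 1 alternative, to 1 between LPS+MIC-1 and control with no minimum fold change (Aim2). Over 8 libraries it became 1 with a pseudocount of 0.1 or with the same sum, 2 with median of ratios scaling and 4 with no minimum fold change between LPS and control, 1 with the same sum and 2 with no minimum fold change between LPS+MIC-1 and LPS, and 4 with no minimum fold change between LPS+MIC-1 and control. Of the 9905 tested genes, 5052 passed between LPS and control with the same sum and 3374 with median of ratios scaling. Between LPS+MIC-1 and LPS 3843 passed with the same sum. The share of all genes was not counted for the pseudocount of 0.1. With the same sum the Log2FC reversed over 9 libraries for Nlrc4 (-0.45), Casp1 (-0.37) and Gsdmd (-0.32) between LPS and control and for Casp4 (0.20) and Gsdmd (0.35) between LPS+MIC-1 and LPS, and over 8 libraries for Casp1 (-0.56) and Gsdmd (-0.58) and for Aim2 (0.59), Casp1 (0.70), Casp4 (0.27) and Gsdmd (0.60). In liver Casp1 between LPS and control reversed to -0.01 with median of ratios scaling and to -0.25 with the same sum. Leaving out 1 library reversed only differences that had not passed the threshold. In macrophages the Log2FC then ranged for Nlrc4 with LPS from -0.04 (without LPS library 2) to 0.18 and was -0.02 without Control library 3, and from LPS to LPS+MIC-1 for Aim2 from -0.20 and for Casp1 from -0.10 (both without LPS library 2) to 0.25 and 0.08, and for Nlrp3 from -0.49 (without LPS+MIC-1 library 2) to 1.06. P2rx7 against control ranged with LPS+MIC-1 from -0.44 to 0.12, above 0 without Control library 1, Control library 3 (0.06) or LPS+MIC-1 library 1 (0.02), and was 0.16 with libraries 1 and 3 averaged. In liver Casp1 with LPS ranged from -0.29 (without Control library 1) to 0.34 and was -0.06 without LPS library 2, alone or together with LPS+MIC-1 library 2, and Nlrc4 from LPS to LPS+MIC-1 ranged from -0.63 to 0.02 (without LPS library 2). Apart from the alternative's own construction the cause was not tested.

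With 3 libraries per group, standard errors near 0.3 in liver leave differences of MIC-1 from LPS of the size seen here undetected. Values under 1 FPKM rest on few reads, and an FPKM listed at 0 is not absence.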
